A study of Mus musculus with 12 samples.

Results

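The genes described here are 43 genes of DNA replication and S phase, chosen by name from the 26962 genes of the deposited table, and all 43 were found. They cover origin licensing, helicase activation, the primase and polymerases, the sliding clamp with its loader and lagging-strand enzymes, nucleotide synthesis, chromatin and histone supply, and G1/S regulators. The RNA was bulk RNA of sorted CD8 T cells, picked out by an Rpl18 tetramer, a peptide-MHC reagent that binds T cells through the antigen they recognize. Mice bore tumors of MC38, a colon carcinoma line of the mouse, and cells were taken on day 10. The 4 groups of 3 libraries were KO tumor, WT tumor, KO tumor-draining lymph node (TDLN) and WT TDLN. KO stands for a CD8-specific knockout of TrIP, the PI3K inhibitor encoded by Pik3ip1, and WT for wild type. The sources used here do not name the Cre or promoter behind the knockout, the ages or the number of mice, and all 4 groups carried the tumor. KO libraries are numbered 1, 2 and 3, WT libraries 1, 3 and 4, and values below follow that order. Nothing states that libraries are separate mice, so p-values measure the spread between these libraries, which may be technical.

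A cell copies its genome once per division. In G1 the origin recognition complex, with Cdc6 and Cdt1, loads the Mcm2-7 helicase on origins; in S phase Cdc45 and the GINS complex switch it on, and polymerases, the PCNA clamp and ribonucleotide reductase carry the fork forward. E2F factors, released from RB family proteins by cyclin-dependent kinases, drive transcription of most of these genes at the G1/S boundary, and activated CD8 T cells divide rapidly in lymph nodes during priming.

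Library depth was an estimated 18.3 to 36.9 M reads in genes. The 8 defining CD8 T-cell markers summed to between 3934 and 6244 CPM (counts scaled to the column total) in tumor, against 3720 to 6722 in TDLN, so the labelled cell type was present in every library. Macrophage and monocyte markers summed to 402 to 1914 CPM in tumor against 8.64 to 27.1 in TDLN, and fibroblast and endothelial markers to 197 to 1335 against 5.2 to 18.7. All 10 macrophage markers were higher in tumor than in TDLN without overlap in both genotypes, against 4420 of 16065 genes in KO and 3661 in WT. In the test given below, 10 passed as higher in KO and 9 in WT, against 2902 and 2560 of all genes tested. Epithelial markers were at 1.01 to 3.04 CPM in tumor and 1.02 to 5 in TDLN. B-cell markers summed to 28.4 to 96.3 CPM in tumor, against 221 to 440 in TDLN. The part of RNA from other cells in the results below was not tested. Pik3ip1 did not part the genotypes: the log2 difference of KO minus WT was -0.44 in tumor (limma adjusted p = 0.814) and 0.42 in TDLN (adjusted p = 1). A count over the whole gene can miss a loss of single exons, and KO names the labelled group.

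Replication transcripts were lower in tumor than in TDLN in both genotypes. Summed over the 43 genes, the level was 1979, 2731 and 2104 CPM in KO tumor, against 5723, 5101 and 3922 in KO TDLN. In WT the sum was 2592, 1656 and 1673 in tumor, against 4946, 5095 and 5980 in TDLN. Every tumor library lay below every TDLN library. The ratio of group means was 0.462 in KO and 0.37 in WT. In bulk RNA, fewer cells in S phase and less replication RNA per cell cannot be told apart.

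Gene by gene, 29 of the 43 genes were lower in KO tumor than in KO TDLN and 40 of 43 were lower in WT tumor than in WT TDLN, with 0 higher in either. The test was limma on log2(normalized count + 24.9), 24.9 being equal to 1 CPM, with Benjamini-Hochberg adjustment over 16065 genes and a threshold of 0.05. Here and in the counts by class and list below, lower, higher and fell mean past this threshold. The log2 difference was below 0 for 42 of the 43 genes in KO and for all 43 in WT. Of all genes tested, 12.6% were lower in KO and 10.9% in WT. The median log2 difference of the 43 genes was -0.97 in KO and -1.29 in WT, beside 0.05 for all genes in both. All 43 passed the filter on low values. Tumor and TDLN values did not overlap, with tumor lower, for 30 of the genes in KO and 39 in WT, against 22.7% and 17% of all genes. Leaving out KO TDLN replicate 1 brought the KO count to 15, and leaving out KO tumor replicate 1 brought it to 18.

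**Figure D1:**
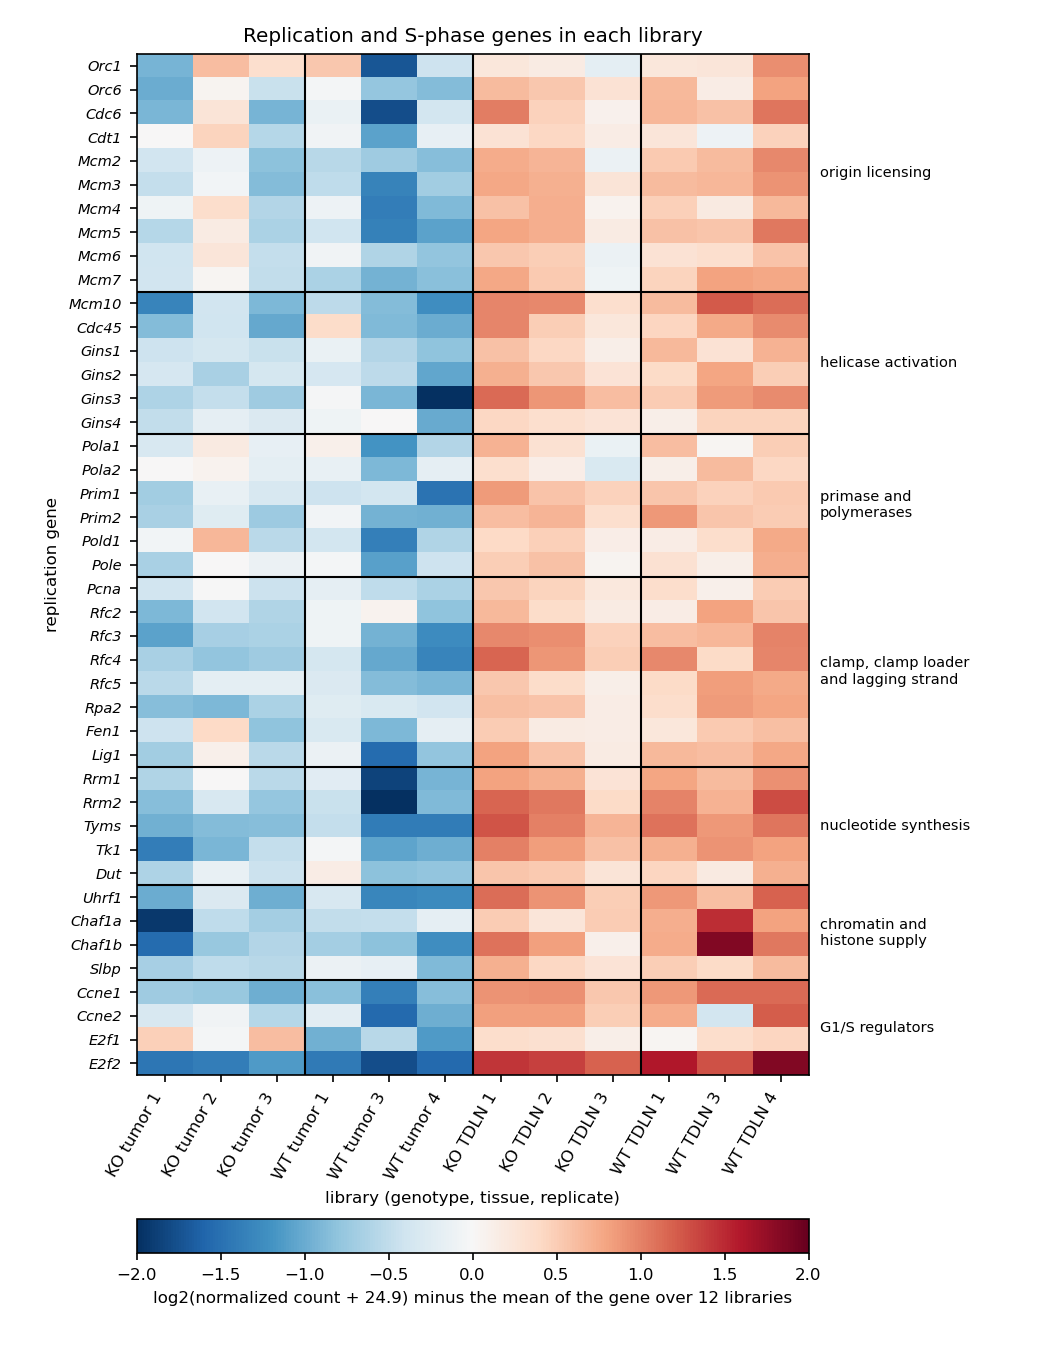
Heat map of the 43 replication genes (rows, by class) in the 12 libraries (columns, KO left of WT within each tissue); colour is log2(normalized count + 24.9) minus the mean of that gene over the 12 libraries, and the scale ends at 2 in each direction. The 6 tumor columns are mostly blue and the 6 TDLN columns mostly red, while E2f1 is pale to red in the KO tumor columns and blue in the WT tumor columns.

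The G1/S regulators held both the largest fall of all 43 genes and the only gene with a log2 difference above 0. E2f2, an activator E2F, stood at 191.5, 200.5 and 244 normalized counts in KO tumor against 1567, 1496 and 1310 in KO TDLN. In WT it stood at 195.8, 147.7 and 175.8 in tumor against 1771, 1394 and 2092 in TDLN. The tissues were far apart in both genotypes. The log2 difference was -2.65 in KO, 6.27-fold lower in tumor (SE 0.20, adjusted p = 2.6e-06), and -3.15 in WT, 8.9-fold lower in tumor (SE 0.20, adjusted p = 8.32e-07). E2f1, the founding activator E2F, stood at 206.1, 137 and 231.5 in KO tumor against 188, 184 and 156.5 in KO TDLN, and the tissues overlapped. In WT it stood at 60.8, 88.19 and 50.84 in tumor against 145.5, 186.9 and 199.6 in TDLN, without overlap. The log2 difference of tumor minus TDLN was 0.08 in KO (SE 0.26, 95% interval -0.48 to 0.65, adjusted p = 0.835) and -1.16 in WT (SE 0.26, adjusted p = 0.00679). The KO value for E2f1 turned to -0.12 with quantile normalization, which put the median of all genes at -0.12 as well, and -0.052 without KO tumor replicate 3.

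Cyclin E activates CDK2 at S-phase entry and is encoded by Ccne1 and Ccne2. Ccne1 averaged 371 ± 37.3 normalized counts in KO tumor against 1177 ± 166.3 in KO TDLN (SD, n = 3), and 322.2 ± 67.9 in WT tumor against 1410 ± 143 in WT TDLN. It fell in both genotypes, by a log2 difference of -1.60 in KO (SE 0.20, adjusted p = 0.000148) and -2.06 in WT (SE 0.20, adjusted p = 2.6e-05). Ccne2 stood at 1576, 1891 and 1325 in KO tumor against 3534, 3521 and 2786 in KO TDLN. The KO groups did not overlap, yet the difference missed the threshold (log2 -1.03, SE 0.38, adjusted p = 0.0582). It passed in 9 of 23 other settings, among them the replicate block (limma adjusted p = 0.0153), a fit of the compared groups only (0.00319), array quality weights (0.0147), a common column total (0.0389) and TMM factors (0.0462). The other 4 left out WT tumor replicate 1 or 3 or WT TDLN replicate 3 or 4. WT Ccne2 was at 1715, 657.7 and 992.1 in tumor against 3316, 1523 and 4630 in TDLN, where WT TDLN replicate 3 lay below the highest tumor value. Its difference in WT was -1.44 (SE 0.38, adjusted p = 0.0155).

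Promoters of the genes were read for E2F sites, since E2F factors are the known common regulators of this group. RefSeq windows from 250 bases before to 50 after the annotated start (GRCm38.p6) were held for 35 of the 43 genes, as 41 promoters. Prim2, Mcm4, Pole, Rfc2, Gins1, Gins2, Gins4 and Ccne2 had no entry. The letters TTTCCCGC, TTTGGCGC, TTTCGCGC and TTTGCCGC were searched on both strands, matches that overlap each other included. At least 1 form was found for 14 of the 35 genes, or 34.1% of their promoters, beside 2.26% of all 32851 promoters and 4.1% of the promoters of genes tested. Matches were not particular to the 43 genes. They were in 24.3% of 74 promoters of listed replication genes outside the 43, and in 5.88% of 17 promoters of a list of G2 and mitosis genes. The 3 windows shown, all with a match, are those of E2f2, Mcm5 and Mcm7. E2f2 and Mcm5 had the largest WT fall among regulators and licensing factors, and KO and WT tumor values of Mcm7 did not overlap. Genes chosen in the same ways elsewhere had no match. Mcm10, Rfc4, Rrm2 and Chaf1b, with the largest WT fall of their classes, had 0 matches, and Prim2 had no window. E2f1, Rpa2 and Chaf1a, whose KO and WT tumor values did not overlap either, had 0 as well. E2f2 lies at chr4:136172024-136172323 on the plus strand, Mcm5 at chr8:75109259-75109558 on the plus strand and Mcm7 at chr5:138171834-138172133 on the minus strand. E2f2 and Mcm7 each have another window in the table, at chr4:136180532-136180831 and chr5:138171217-138171516, with 0 matches; the window with a match is the one shown. Capitals mark bases of a match on either strand.
E2f2: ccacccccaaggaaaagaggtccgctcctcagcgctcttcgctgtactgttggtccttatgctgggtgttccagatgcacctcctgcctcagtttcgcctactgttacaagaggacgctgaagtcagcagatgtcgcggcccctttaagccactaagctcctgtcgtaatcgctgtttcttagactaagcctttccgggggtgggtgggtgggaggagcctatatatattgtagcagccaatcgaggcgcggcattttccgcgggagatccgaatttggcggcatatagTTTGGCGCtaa
Mcm5: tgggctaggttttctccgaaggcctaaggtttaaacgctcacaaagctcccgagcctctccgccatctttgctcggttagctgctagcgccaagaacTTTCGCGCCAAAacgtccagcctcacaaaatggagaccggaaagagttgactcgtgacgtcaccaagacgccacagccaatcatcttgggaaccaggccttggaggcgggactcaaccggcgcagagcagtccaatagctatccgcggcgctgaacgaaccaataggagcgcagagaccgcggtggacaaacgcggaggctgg
Mcm7: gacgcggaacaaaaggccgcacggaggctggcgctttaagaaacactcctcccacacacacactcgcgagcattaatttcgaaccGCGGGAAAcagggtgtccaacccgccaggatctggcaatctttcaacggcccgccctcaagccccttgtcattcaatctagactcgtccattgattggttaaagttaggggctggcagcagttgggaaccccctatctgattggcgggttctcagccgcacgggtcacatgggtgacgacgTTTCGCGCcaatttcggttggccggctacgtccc

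Counted in bases from the annotated start at 0, the E2f2 match began at 39, the overlapping Mcm5 matches at -153 and -149, and the Mcm7 matches at -165 and 16. Of the 41 windows, 3 lay partly in coding sequence before the annotated start by GENCODE M21, those of E2f1 (188 of 300 bases), Dut (130) and the other E2f2 window (46), and each had 0 matches. The E2f1 window is therefore inside the gene and not upstream of its first exon, so the sequence upstream of the gene was not searched. Matches were unevenly spread over the classes: 7 of 9 licensing genes with a window held one, and 0 of 5 genes of nucleotide synthesis. Of these 5, Dut had the partly coding window given above, so the sequence upstream of that coding part was not fully searched. The median log2 difference of tumor minus TDLN was -0.89 in KO and -1.51 in WT for the 14 genes with a match, and -1.04 and -1.35 for the 21 without. E2f1 and Dut are counted among those without a match. A match is a description of the letters and was not tested as a site. CCAAT, the NF-Y box, was in 58.5% of the promoters of the replication genes and 37.4% of all. It was in 45.9% of promoters of listed replication genes outside the 43, and was commoner still, at 88.2%, in 17 promoters of G2 and mitosis genes. TTTGAA, the core of the element of late cell-cycle genes, was in 12.2% of the promoters of the replication genes and 17.9% of all. It was in 16.2% of those of replication genes outside the 43 and 70.6% of the 17 promoters of G2 and mitosis genes.

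Origin licensing held 10 genes, of which 5 were lower in KO tumor and 8 in WT tumor than in the TDLN of the same genotype. Mcm5, a subunit of the helicase ring, stood at 1192, 2006 and 1140 normalized counts in KO tumor against 3097, 2959 and 1995 in KO TDLN. In WT it stood at 1351, 684.7 and 832.6 in tumor against 2679, 2638 and 3711 in TDLN. The highest KO tumor value was just above the lowest KO TDLN value, while WT tissues were apart. The log2 difference was -0.90 in KO (SE 0.29, adjusted p = 0.0336) and -1.67 in WT (SE 0.29, adjusted p = 0.00145). The KO call was lost without KO tumor replicate 1 (-0.79) or 3 (-0.76), without KO TDLN replicate 1 (-0.79) or 2 (-0.82), and with no filter on low values (limma adjusted p = 0.0543). Mcm2, Mcm3 and Mcm7 fell in both genotypes, as did Orc6, a small subunit of the origin recognition complex, with log2 differences from -1.05 to -0.68 in KO and from -1.58 to -1.09 in WT. Mcm4 and Mcm6 were at -0.57 and -0.51 in KO (adjusted p = 0.193 and 0.137) and passed in WT (-1.23 and -0.89). KO tumor held 2423, 3309 and 1708 normalized counts of Mcm4 against 3894, 4285 and 2714 in KO TDLN, and WT tumor 2391, 975.1 and 1387 against 3604, 2915 and 4065 in WT TDLN. For Mcm6 the values were 2464, 3862 and 2344 in KO tumor against 4761, 4584 and 2994 in KO TDLN, and 3090, 2129 and 1884 in WT tumor against 3975, 4117 and 4857 in WT TDLN. In both genes KO tumor replicate 2 was above KO TDLN replicate 3, and WT tissues did not overlap. With array quality weights Mcm6 passed in KO (-0.59).

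The loaders Cdc6, Cdt1 and Orc1 passed in 1 of 6 tests, Cdc6 in WT. Cdc6, the loading ATPase, stood at 363, 853.9 and 359.1 normalized counts in KO tumor against 1459, 983.3 and 754.7 in KO TDLN, and at 643, 189.3 and 541.3 in WT tumor against 1134, 1078 and 1509 in WT TDLN. It did not pass in KO (log2 -1.05, SE 0.43, adjusted p = 0.0826) and passed in WT (-1.53, SE 0.43, adjusted p = 0.0205). In KO it passed in 3 of 23 other settings, which were array quality weights (-1.12), without KO tumor replicate 2 (-1.45) and without WT tumor replicate 3 (-1.05). Cdt1, which brings the helicase to origins and is destroyed in S phase, did not pass in either genotype (log2 -0.32, adjusted p = 0.447 in KO, and -0.63, adjusted p = 0.143 in WT). Its values overlapped, at 715.1, 977 and 470 in KO tumor against 874.3, 954.9 and 788.3 in KO TDLN, and 674.9, 327 and 634.5 in WT tumor against 848.6, 659 and 988.5 in WT TDLN. Orc1, the ATPase subunit of the origin recognition complex that cycles in abundance, stood at 87.26, 301.6 and 243.4 in KO tumor against 224.7, 214.5 and 161.1 in KO TDLN. WT Orc1 was at 284.2, 40.09 and 136.3 in tumor against 225.5, 226.8 and 381.3 in TDLN. Both pairs overlapped, and the log2 difference was -0.06 in KO (SE 0.52, adjusted p = 0.942) and -0.99 in WT (SE 0.52, adjusted p = 0.174). Leaving out KO tumor replicate 1 gave 0.41 in KO, and leaving out KO TDLN replicate 1 gave 0.022; the WT value passed without WT tumor replicate 1 (-1.53).

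Helicase activation factors fell in both genotypes at 5 of 6 genes. Mcm10, which helps to start the helicase, stood at 118.6, 249.9 and 167.7 normalized counts in KO tumor against 683.9, 678.9 and 427.3 in KO TDLN. In WT it stood at 224.6, 173.5 and 127.1 in tumor against 533.4, 816.6 and 757.3 in TDLN. Neither pair overlapped, and the log2 difference was -1.63 in KO (SE 0.30, adjusted p = 0.00189) and -1.87 in WT (SE 0.30, adjusted p = 0.000915). Cdc45 was at -1.32 in KO and -1.22 in WT, and the GINS subunits Gins1, Gins2 and Gins3 lay between -1.48 and -0.78 in KO and between -1.82 and -1.06 in WT. Gins4, the remaining GINS subunit, missed the threshold in both, at log2 -0.66 in KO (SE 0.25, adjusted p = 0.0618) and -0.70 in WT (SE 0.25, adjusted p = 0.0534). Its values were 605.6, 760 and 704.3 in KO tumor against 1152, 1095 and 1044 in KO TDLN, and 807.9, 871.2 and 417.3 in WT tumor against 940.6, 1186 and 1180 in WT TDLN. Although uncalled, Gins4 did not overlap between tissues in either genotype, and it passed in 6 of 23 other settings in each. In KO these were array quality weights (limma adjusted p = 0.0108), the compared groups only (0.0174), a common column total (0.0423), TMM factors (0.0471) and without WT tumor replicate 3 or 4. In WT they were a common column total (limma adjusted p = 0.022), TMM factors (0.0452), quantile normalization (0.0468), a filter at 5 CPM (0.0486) and without WT tumor replicate 1 (-0.83) or 3 (-0.89).

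**Figure D2:**
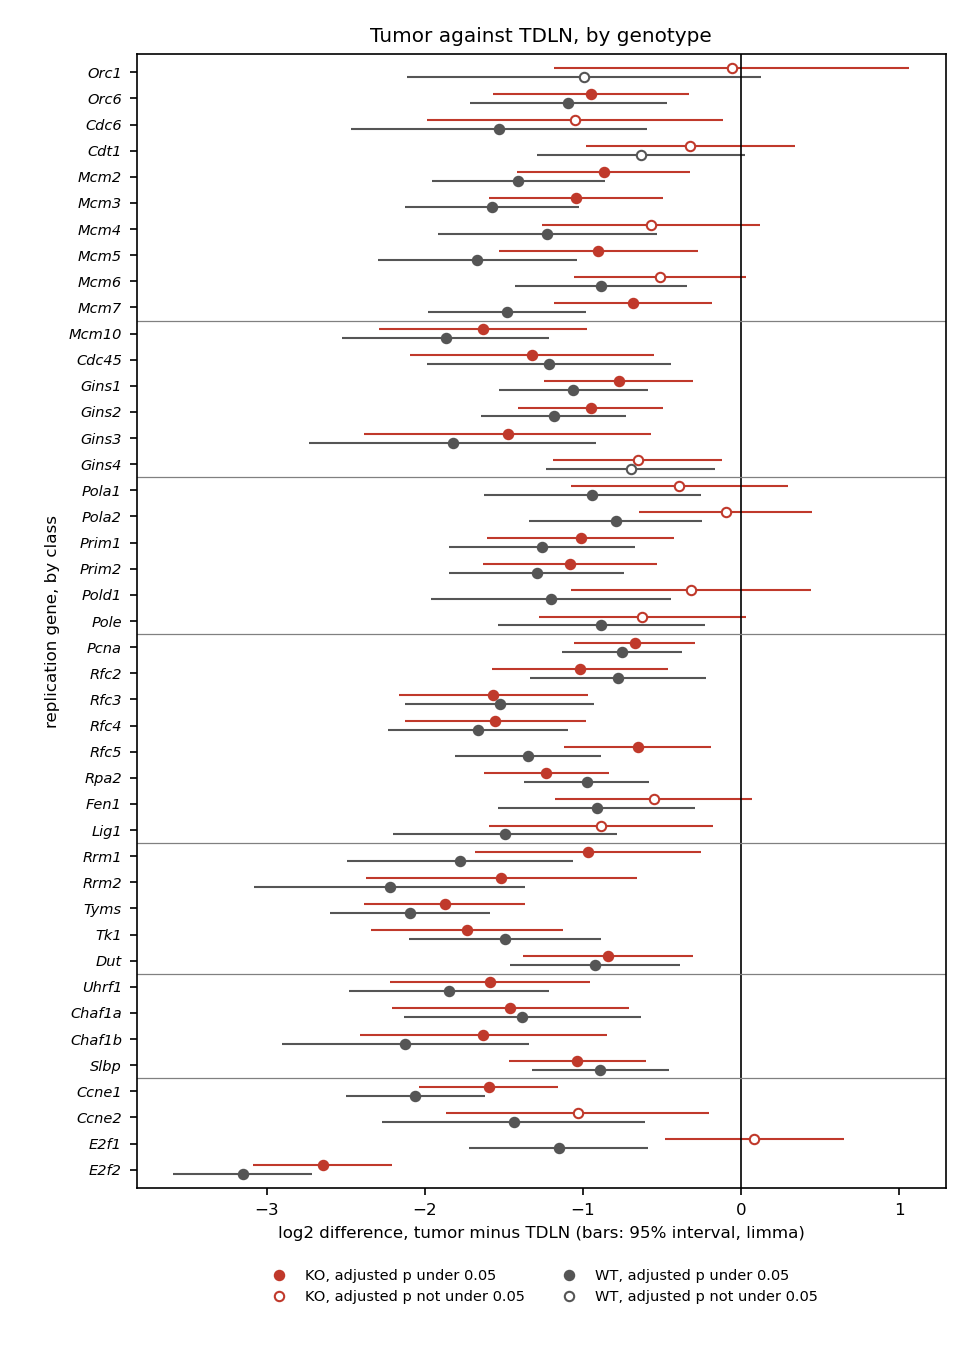
Log2 difference of tumor minus TDLN for each replication gene in KO (red) and WT (grey), with 95% intervals from limma; filled points passed an adjusted p of 0.05 and open points did not, and lines part the classes. Points lie left of 0 for 42 genes in KO, E2f1 being the exception, and for all 43 in WT.

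The primase and polymerase genes passed as lower at 2 of 6 in KO tumor and at 6 of 6 in WT tumor, and all 6 had a log2 difference below 0 in both. Prim2, the large primase subunit, stood at 446, 593.8 and 421.4 normalized counts in KO tumor against 1105, 1154 and 904.5 in KO TDLN. In WT it stood at 682.2, 358.5 and 352.7 in tumor against 1313, 1056 and 1018 in TDLN. The tissues were apart in both genotypes (log2 -1.08 in KO, SE 0.25, adjusted p = 0.00739; -1.29 in WT, SE 0.25, adjusted p = 0.00303). Prim1, the catalytic primase subunit, fell as well, by -1.01 in KO and -1.26 in WT. Pola2, the accessory subunit of DNA polymerase alpha, showed the smallest WT fall of the class. It stood at 544.5, 568.4 and 471.4 in KO tumor against 693.2, 595.7 and 435.9 in KO TDLN, and at 485.3, 279.6 and 475.6 in WT tumor against 586, 857.3 and 727.5 in WT TDLN. KO tissues overlapped (log2 -0.10, SE 0.25, adjusted p = 0.799) and WT tissues did not (-0.79, SE 0.25, adjusted p = 0.0356). The KO value was 0.044 without KO TDLN replicate 1, and the WT call was lost in 8 of 23 other settings. Those were without WT tumor replicate 3 (-0.55), WT TDLN replicate 3 (-0.67) or 4 (-0.78) or KO TDLN replicate 2 (limma adjusted p = 0.0515), and with all libraries the replicate block (0.0613), the compared groups only (0.0907), array quality weights (0.0764) and no filter on low values (0.0528).

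The catalytic subunits of the 3 replicative polymerases, Pola1, Pold1 and Pole, did not pass in KO (log2 -0.39, -0.32 and -0.62, adjusted p from 0.135 to 0.515) and passed in WT (-0.94, -1.20 and -0.89). Pola1 was at 777.1, 1114 and 867.8 in KO tumor against 1596, 1212 and 889.1 in KO TDLN, and at 1053, 415.1 and 645.1 in WT tumor against 1520, 1006 and 1389 in WT TDLN. Pold1 was at 119.5, 210.6 and 77.63 in KO tumor against 172.5, 184 and 139.2 in KO TDLN, and at 90.68, 32.98 and 73.09 in WT tumor against 141.4, 165 and 226.8 in WT TDLN. Both genes overlapped between KO tissues, and Pola1 between WT tissues too. Pole was at 202.5, 333.7 and 303.6 in KO tumor against 477.4, 505.9 and 342.8 in KO TDLN, and at 322.5, 143.4 and 242.6 in WT tumor against 413.2, 360 and 560.3 in WT TDLN, without overlap in either genotype. With array quality weights Pole passed in KO (-0.75).

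Among the clamp, clamp loader and lagging-strand genes, 6 of 8 were lower in KO tumor and 8 of 8 in WT tumor. Rfc4, a subunit of the loader that places PCNA on DNA, stood at 760.1, 684.7 and 729 normalized counts in KO tumor against 2716, 2232 and 1696 in KO TDLN. WT tumor held 936.6, 578.8 and 468.7 against 2355, 1576 and 2379 in WT TDLN. The log2 difference was -1.55 in KO, 2.94-fold lower in tumor (SE 0.26, adjusted p = 0.00105), and -1.67 in WT, 3.17-fold lower (SE 0.26, adjusted p = 0.000777), with no overlap. The other loader subunits, Rfc2, Rfc3 and Rfc5, fell in both, at -1.02, -1.57 and -0.66 in KO and -0.78, -1.53 and -1.35 in WT. Pcna, the clamp itself, stood at 6930, 8954 and 6717 in KO tumor against 13211, 12264 and 10482 in KO TDLN, and at 7972, 6385 and 5831 in WT tumor against 11501, 9655 and 12838 in WT TDLN. It had the smallest WT fall of this class without overlapping between tissues (log2 -0.67 in KO, SE 0.18, adjusted p = 0.0128; -0.75 in WT, SE 0.18, adjusted p = 0.00803). The KO call was lost without KO tumor replicate 1 (-0.62) or KO TDLN replicate 1 (-0.60). Rpa2, a subunit of the single-strand binding protein RPA, was at -1.23 in KO and -0.98 in WT.

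Fen1 and Lig1, which trim and seal Okazaki fragments, did not pass in KO (log2 -0.55 and -0.89, adjusted p = 0.163 and 0.0575) and passed in WT (-0.91 and -1.50). Fen1 was at 835.3, 1478 and 632.3 in KO tumor against 1613, 1258 and 1248 in KO TDLN, and at 907.2, 593.2 and 983.7 in WT tumor against 1319, 1631 and 1723 in WT TDLN. Lig1 was at 444.6, 791.7 and 495.9 in KO tumor against 1296, 1101 and 820.9 in KO TDLN, and at 673.9, 235.9 and 415.2 in WT tumor against 1170, 1132 and 1273 in WT TDLN. KO tumor replicate 2 was the highest KO tumor library for both, inside the TDLN range for Fen1 and just under it for Lig1. Without that library both passed in KO, at -0.89 for Fen1 and -1.13 for Lig1. Lig1 also passed in KO in 7 further settings of 23: 5 with all libraries, with limma adjusted p from 0.0104 to 0.0434, and without WT tumor replicate 1 or 3.

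All 5 genes of nucleotide synthesis fell in both genotypes. Rrm2, the S-phase subunit of ribonucleotide reductase, stood at 3919, 5641 and 4135 normalized counts in KO tumor against 15887, 14721 and 9254 in KO TDLN. In WT it stood at 5197, 1370 and 3797 in tumor against 14026, 11440 and 17539 in TDLN. The fold was 2.86 in KO (log2 -1.52, SE 0.40, adjusted p = 0.0126) and 4.67 in WT (log2 -2.22, SE 0.40, adjusted p = 0.00166), and WT tumor replicate 3 was the lowest library. The KO call was lost without KO TDLN replicate 1 (-1.37). Tyms, thymidylate synthase, was at -1.88 in KO (SE 0.24) and -2.10 in WT (SE 0.24); Tk1, thymidine kinase, at -1.74 and -1.49; and Rrm1, the large reductase subunit, at -0.97 and -1.78. Dut, which removes dUTP, stood at 4387, 6075 and 5003 in KO tumor against 9882, 9630 and 8077 in KO TDLN, and at 7465, 3790 and 3867 in WT tumor against 9018, 7622 and 11016 in WT TDLN. Its difference was the smallest of the class, at -0.84 in KO (SE 0.25, adjusted p = 0.023) and -0.93 in WT (SE 0.25, adjusted p = 0.0158), with no overlap. The KO call was lost without KO tumor replicate 1 (-0.73) or 3 (-0.82) or KO TDLN replicate 1 (-0.79) or 2 (-0.80), and the WT call without WT tumor replicate 4 (-0.77) or WT TDLN replicate 4 (-0.79) and in a fit of the compared groups only (limma adjusted p = 0.0609).

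The 4 genes of chromatin and histone supply fell in both genotypes too. Chaf1b, a subunit of the CAF-1 histone chaperone, stood at 93.95, 178.9 and 205.2 normalized counts in KO tumor against 709.5, 584.8 and 344.7 in KO TDLN. WT tumor held 190.6, 170.6 and 121.8 against 550.6, 1222 and 689.9 in WT TDLN. The log2 difference was -1.63 in KO, 3.1-fold lower in tumor (SE 0.36, adjusted p = 0.0052), and -2.13 in WT, 4.36-fold lower (SE 0.36, adjusted p = 0.0012), and the tissues were apart. Uhrf1, which carries DNA methylation through replication, was at -1.59 in KO and -1.85 in WT, and Chaf1a at -1.46 and -1.39. Slbp, which binds the stem-loop of replication-dependent histone mRNAs, stood at 5806, 6491 and 6261 in KO tumor against 15053, 12267 and 11097 in KO TDLN, and at 8514, 8190 and 4969 in WT tumor against 12988, 11983 and 14230 in WT TDLN. It fell by a log2 difference of -1.04 in KO (SE 0.20, adjusted p = 0.00233) and -0.89 in WT (SE 0.20, adjusted p = 0.00633), again without overlap.

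Values of 15 of the 43 genes are uncertain, because their transcripts share sequence with another gene of the table and the sources used here do not say how shared reads were counted. Processed pseudogenes of 9 of them were matched at 90% identity or more over at least 400 bases. Pcna-ps2, 99.2% identical to Pcna, held 67.7% of the Pcna value in KO tumor and 85.4% in WT tumor, and 90.7% in KO TDLN and 90.9% in WT TDLN. Tyms-ps stood above Tyms itself, at 130% in KO tumor, 153% in WT tumor, 166% in KO TDLN and 163% in WT TDLN. The Mcm7 pseudogene Gm5487 held 21.7% and 34.4% of the Mcm7 value in KO tumor and WT tumor, against 63.6% and 88.3% in KO TDLN and WT TDLN. Adding each pseudogene to its gene moved the log2 difference of tumor minus TDLN by -0.47 to -0.03, so all 9 sums lay lower than the gene alone. Exonic overlap with a neighbouring gene was found for 9 genes, 3 of which also have a pseudogene. Lat2, which overlaps Rfc2 over 954 bases, held 51.9% and 39.3% of the Rfc2 value in KO tumor and WT tumor, against 1% and 0.439% in KO TDLN and WT TDLN. Ubxn6, which overlaps Chaf1a over 1285 bases, held 362% of the Chaf1a value in KO tumor and 191% in WT tumor, against 116% in KO TDLN and 65.6% in WT TDLN. Rfc5 overlaps Wsb2 over 499 bases. Wsb2 held 54.4% and 61.8% of the Rfc5 value in KO tumor and WT tumor, against 11.5% and 7.33% in KO TDLN and WT TDLN. The Rfc5 pseudogene Gm12870 held 19.3% and 32.3% in KO tumor and WT tumor, against 48% and 55.8% in KO TDLN and WT TDLN. The library kit keeps strand, but whether the counting used it is not given.

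Listed genes of replication and G1/S control outside the 43 had smaller median differences when pooled, and a few moved the other way. Of 72 such genes in 6 lists, 71 were tested: 19 were lower and 2 higher in KO tumor, with a median log2 difference of -0.62, and 38 were lower and 3 higher in WT tumor, with a median of -0.87. Asf1b, a histone chaperone, stood at 752.5, 1318 and 1397 in KO tumor against 7762, 6071 and 5106 in KO TDLN, and at 1520, 1002 and 783.8 in WT tumor against 5608, 6883 and 7433 in WT TDLN. It had the largest fall of these lists (log2 -2.45 in KO, adjusted p = 6.25e-05, and -2.61 in WT, adjusted p = 4.91e-05). Cyclin A2 (Ccna2) was next, at -1.78 in KO and -2.31 in WT. Cdkn1a, which encodes the CDK inhibitor p21, stood at 672.7, 1122 and 922.7 in KO tumor against 140.2, 117.6 and 68.17 in KO TDLN, and at 844.7, 1407 and 673.8 in WT tumor against 80.68, 91.68 and 168 in WT TDLN. Tumor was 7.02-fold higher in KO (log2 2.81, SE 0.34, adjusted p = 0.000102) and 7.15-fold higher in WT (log2 2.84, SE 0.34, adjusted p = 0.000114). Pold4, the small accessory subunit of polymerase delta, was also higher, by 0.86 in KO (adjusted p = 0.0345) and 1.40 in WT (adjusted p = 0.00316), and Atrip, the partner of the checkpoint kinase ATR, by 0.74 in WT (adjusted p = 0.0268).

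By list, the fork components outside the 43 were lower at 5 of 18 genes in KO and 14 of 18 in WT, and those of licensing and firing at 2 of 12 and 4 of 12. These fork components had median log2 differences of -0.835 in KO and -1.144 in WT, within the range of the classes of the 43. Medians of those classes ran from -1.523 to -0.507 in KO and from -1.777 to -1.071 in WT. Other genes of nucleotide supply were lower at 3 of 9 in KO and 4 of 9 in WT. E2f8, a repressor E2F, fell in both genotypes (log2 -1.34 in KO and -1.67 in WT), as did Ccnd3, cyclin D3 (-1.20 and -1.80). E2f3 and Rb1 passed in neither, at 0.47 and 0.04 in KO and -0.26 and -0.18 in WT. Genes of G2 and mitosis, the later stages of the division program, were lower at 12 of 20 in KO and 20 of 20 in WT, with median log2 differences of -1.40 and -2.08.

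**Figure D3:**
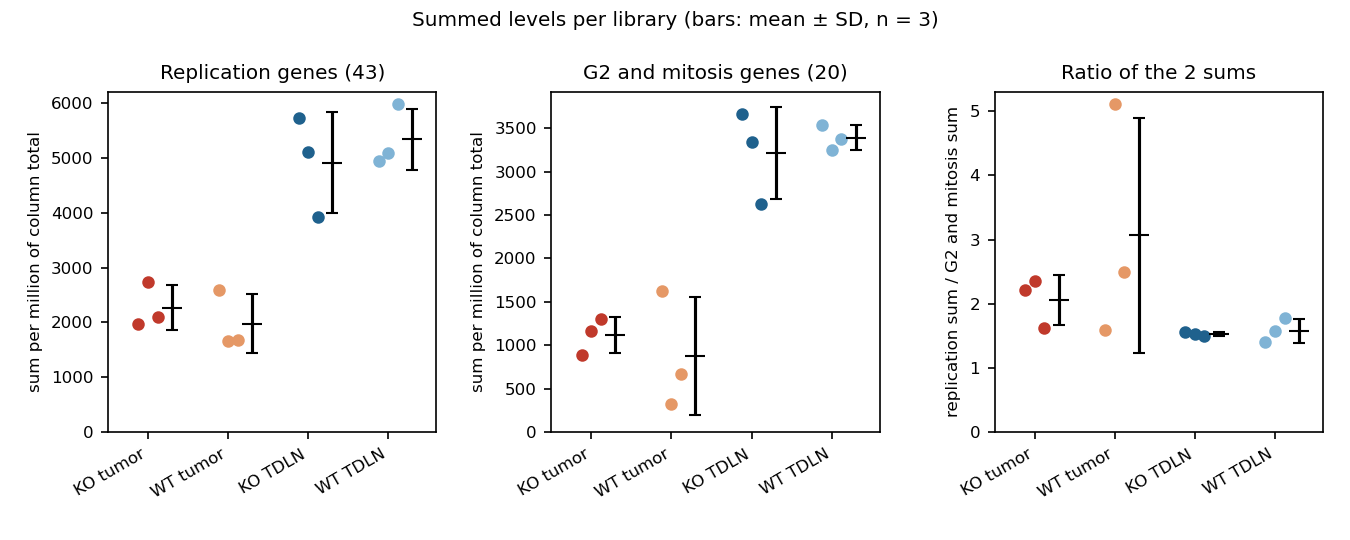
Summed level of the 43 replication genes, summed level of 20 G2 and mitosis genes, each in CPM of the column total, and the ratio of the first to the second, in each library; points are libraries and bars are the mean ± SD of 3. Tumor sums lie below TDLN sums for both lists, and in the ratio WT tumor replicate 3 stands apart at 5.11.

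The tumor libraries differed among themselves in both programs. Replication sums were highest in KO tumor replicate 2 and WT tumor replicate 1, which were the highest of their groups for 33 and 37 of the 43 genes. Both also held the most erythroid marker RNA of their groups: 5 erythroid genes summed to 11.8, 440 and 1.97 CPM in KO tumor and to 46.5, 4.03 and 3.12 in WT tumor, against at most 1.41 in TDLN. Macrophage and monocyte markers were highest in KO tumor replicate 2 as well, at 849, 1914 and 799 CPM in KO tumor, against 1010, 1100 and 402 in WT tumor. The part of this RNA in the replication sums was not tested. G2 and mitosis sums were 891, 1162 and 1301 CPM in KO tumor against 3663, 3345 and 2626 in KO TDLN, and 1629, 324 and 671 in WT tumor against 3538, 3251 and 3376 in WT TDLN. The ratio of the replication sum to this sum was 2.22, 2.35 and 1.62 in KO tumor against 1.56, 1.52 and 1.49 in KO TDLN, and 1.59, 5.11 and 2.49 in WT tumor against 1.4, 1.57 and 1.77 in WT TDLN. WT tumor replicate 3, at 5.11, held far less G2 and mitosis RNA for its replication RNA than the other libraries. In TDLN, KO replicate 3 was the lowest of its group for 42 of the 43 genes, and its B-cell markers summed to 440 CPM against 290 and 268 in the other KO TDLN libraries; the part of B-cell RNA in this was not tested.

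Whether the knockout label parted the tumor T cells was tested next, and 0 of the 43 genes passed, as did 0% of all genes. At an unadjusted p under 0.05 the count was 4 of 43 genes, beside 6.25% of all genes. The median log2 difference of KO minus WT was 0.23, beside 0.02 for all genes, with 35 of the 43 above 0. That median was 0.15 without KO tumor replicate 2, 0.08 without WT tumor replicate 3 and 0.49 without WT tumor replicate 1, so it rested on which libraries were used. Markers of cell type differed between the same libraries. The 8 CD8 T-cell markers summed to 4147, 3934 and 4020 CPM in KO tumor and to 5165, 6244 and 4997 in WT tumor. All 8 had a log2 difference of KO minus WT below 0 (median -0.49), 6 of them without overlap. All 10 macrophage and monocyte markers were above 0 (median 0.46), 1 of them without overlap. None of these 18 markers passed the test, and their part in the shift of the replication genes was not tested. KO and WT libraries did not overlap for 2 genes higher in KO (E2f1 and Mcm7), against 4.1% of all genes, and for 2 genes lower in KO (Rpa2 and Chaf1a), against 3.37%.

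E2f1 had the smallest p of the 43. As given above, its 3 KO tumor values lay between 137 and 231.5 normalized counts, and the 3 WT tumor values between 50.84 and 88.19. The mean was 191.6 ± 48.9 in KO tumor and 66.6 ± 19.3 in WT tumor (SD, n = 3), a 2.36-fold difference on the log2(value + 24.9) scale (log2 1.24, SE 0.26, 95% interval 0.67 to 1.80, limma adjusted p = 0.586). The groups did not overlap, and the difference did not pass over all genes. Leaving out each library in turn gave 1.10 to 1.43, and the adjusted p ran from 0.189 to 0.983 over 23 other settings. E2f2, its close relative, was at 212 ± 28.1 in KO tumor and 173.1 ± 24.2 in WT tumor, with overlapping libraries.

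The other genes of small p went in both directions. Mcm7 stood at 1191, 1602 and 1109 normalized counts in KO tumor against 997.3, 802.6 and 868.8 in WT tumor (log2 0.52, SE 0.23, limma adjusted p = 0.775). Its pseudogene Gm5487 differed by -0.01 between the same libraries (adjusted p = 0.999). Pold1 stood at 119.5, 210.6 and 77.63 in KO tumor against 90.68, 32.98 and 73.09 in WT tumor, with overlap (log2 0.80, SE 0.35, limma adjusted p = 0.775). Mcm4, at 0.68 (SE 0.32, limma adjusted p = 0.775), overlapped as well. Rpa2 lay on the other side, at 1118, 1073 and 1295 in KO tumor against 1701, 1635 and 1554 in WT tumor (log2 -0.48, SE 0.18, limma adjusted p = 0.771). Chaf1a stood at 57.53, 196.2 and 172.4 in KO tumor against 197.9, 201.9 and 251.9 in WT tumor, a log2 difference of -0.65 (SE 0.35, adjusted p = 0.797). KO tumor replicate 1 was the low library there.

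**Figure D4:**
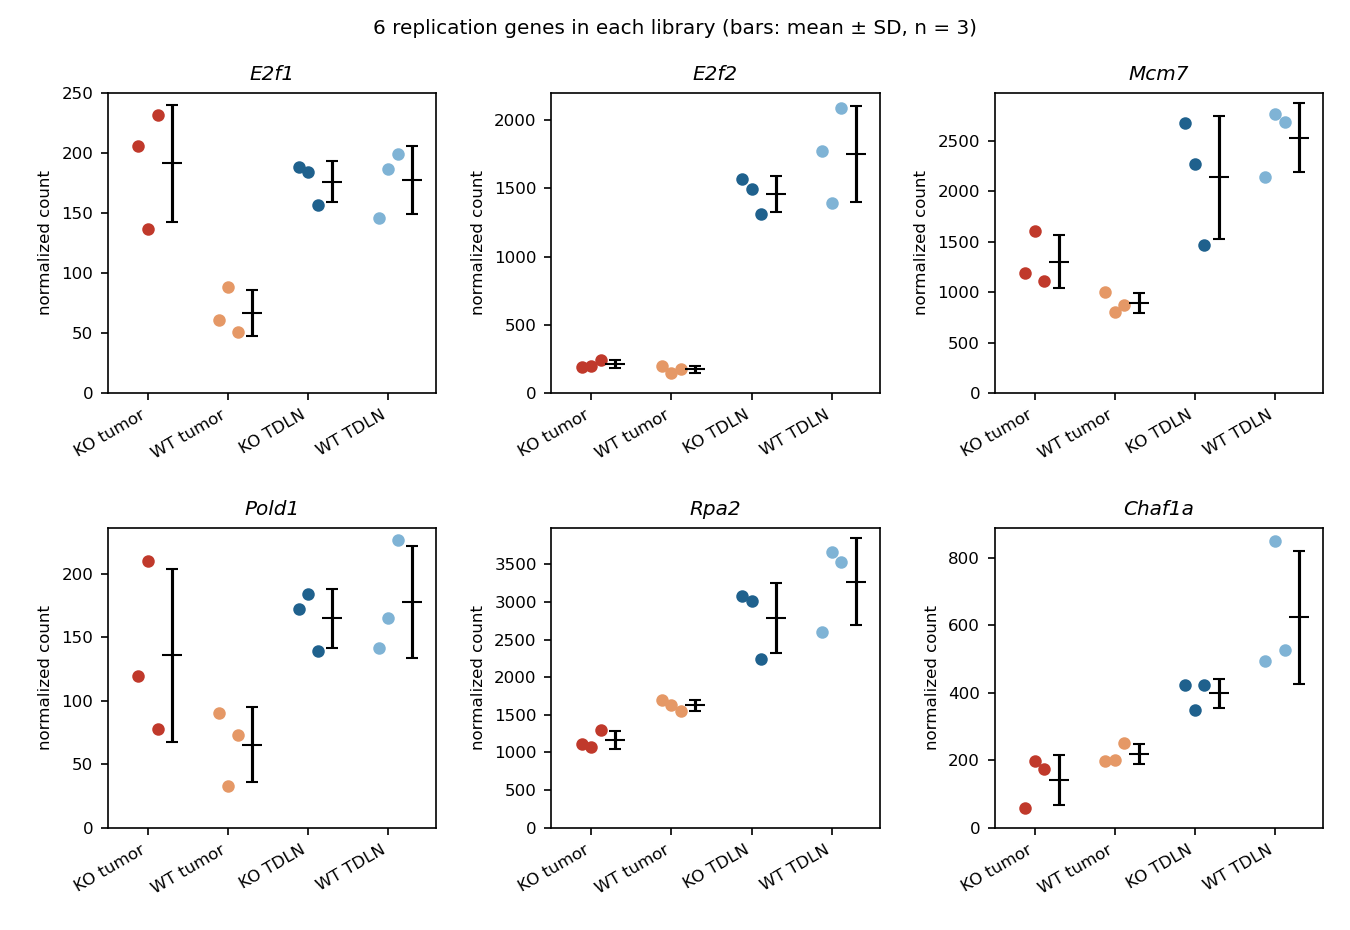
Normalized counts of E2f1, E2f2, Mcm7, Pold1, Rpa2 and Chaf1a in each library, KO left of WT within each tissue; points are libraries and bars are the mean ± SD of 3. E2f1 in KO tumor, at 137 to 231.5, spans its TDLN values, while in WT tumor it stays at or under 88.19.

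In TDLN, 0 of the 43 genes passed between KO and WT, as did 0% of all genes, and 0 had an unadjusted limma p under 0.05, beside 0.766% of all genes. The median log2 difference of KO minus WT was -0.10, with 10 of 43 genes above 0, and it was 0.03 without KO TDLN replicate 3. All 8 B-cell markers tested were above 0 between the same groups (median 0.83), with sums of 290, 268 and 440 CPM in KO TDLN and 307, 275 and 221 in WT TDLN; their part was not tested. The 3 smallest p belonged to both CAF-1 genes and Rfc5, of which Chaf1a and Rfc5 share sequence with another gene. Chaf1a stood at 422.6, 348.7 and 423.5 normalized counts in KO TDLN against 493.4, 848.4 and 525.9 in WT TDLN (log2 -0.58, SE 0.35, 95% interval -1.33 to 0.17, adjusted p = 1). Chaf1b differed by -0.54 (SE 0.36) and Rfc5 by -0.32 (SE 0.21), both with limma adjusted p = 1. Chaf1b was at 709.5, 584.8 and 344.7 in KO TDLN against 550.6, 1222 and 689.9 in WT TDLN. Rfc5 was at 1981, 1749 and 1462 in KO TDLN against 1770, 2429 and 2294 in WT TDLN. WT TDLN replicate 3 was the highest TDLN library for both CAF-1 genes. Leaving out each library in turn gave -0.72 to -0.34 for Chaf1a, -0.78 to -0.22 for Chaf1b and -0.45 to -0.20 for Rfc5. Groups did not overlap, with KO lower, for 2 of the 43 genes, against 3.18% of all genes. E2f1 averaged 176.2 ± 17.1 in KO TDLN and 177.3 ± 28.3 in WT TDLN, a log2 difference of -0.002 (95% interval -0.57 to 0.57).

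**Figure D5:**
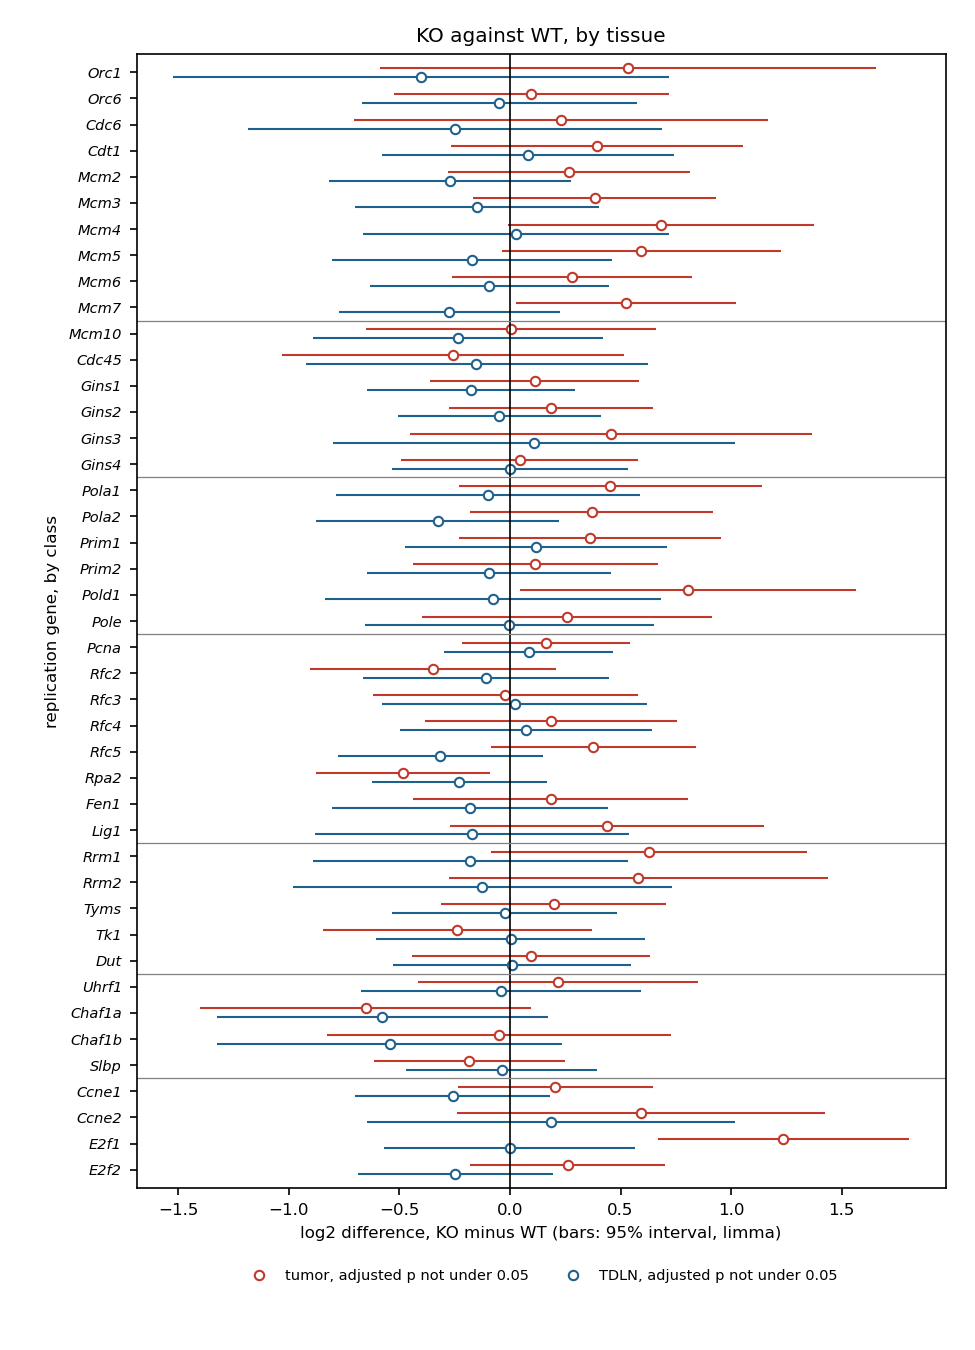
Log2 difference of KO minus WT for each replication gene in tumor (red) and TDLN (blue), with 95% intervals from limma; open points mark that no gene passed an adjusted p of 0.05. In tumor 35 of 43 points lie right of 0 and in TDLN 10 of 43, with E2f1 in tumor farthest right at 1.24.

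The difference between the tissues in the genotype effect was tested directly as an interaction, KO minus WT in tumor minus KO minus WT in TDLN. None of the 43 genes passed (0), as for 0% of all genes, and 3 had an unadjusted limma p under 0.05, beside 2.89% of all genes. E2f1 was at 1.24 (SE 0.37, 95% interval 0.44 to 2.04), Mcm7 at 0.80 (SE 0.33) and Rfc5 at 0.69 (SE 0.30), each with adjusted p = 1. Mcm7 and Rfc5 are among the genes named above as sharing sequence with another gene, so their values are uncertain. The median over the 43 genes was 0.35, beside 0.01 for all genes, with 36 above 0. This is the same quantity as the larger tumor fall in WT, seen in 36 of the 43 genes: 29 passed in both genotypes, 0 in KO alone, 11 in WT alone and 3 in neither, and the difference between genotypes passed for 0 of them. The tissue comparisons and the genotype comparisons share libraries, so these counts are not independent of each other.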

How the data were processed

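Sequencing libraries came from a polyA mRNA kit that keeps strand, per the labels' protocols. The authors deposited 1 table of normalized counts, exported from Partek per the file headers, which is used here as signal values without further scaling. Each column behaves as an estimated read count divided by 1 size factor: 87.1% to 89.6% of deposited values under 50 reads are whole within 0.01 reads, and the rest are fractions, which is why no count model was fitted. The submitters' processing notes name GRCm38 and GRCm39 without saying what each was used for; the aligner and counter were not given in the sources used. Column totals were 22113970 to 26490590 normalized counts. The number of reads, not these totals, limits the precision of low genes.

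Genes averaging 1 CPM or more (24.9 normalized counts) over the libraries were tested with limma 3.58.1 (R 4.3.3) with an intensity trend, on log2(value + 24.9), in 1 model of 4 group means over 12 libraries. Degrees of freedom were 8 residual plus 4.47 prior. Tests were two-sided, and fold changes of low genes are understated on this scale. As a check of the code, the fit was run on simulated counts with the same spread setting for every gene and library. That run does not show how the fit performs on the uneven libraries used here. Sums, motifs and figures used Python 3.11.15 with pandas 2.3.3, scipy 1.17.1 and matplotlib 3.10.9. Transcript copies were found with blastn among GENCODE M21 transcript sequences and joined to the table by gene identifier. The build of M21 was not established as that of the table, and no positions were used in that step. The M21 coding sequences (GRCm38) were also set against the promoter windows. The 43 genes, the lists and the settings were chosen with earlier results of these data known. Genes given library by library are the largest and smallest WT tissue difference of each class, those with the smallest p between genotypes, and those that missed a call made for others of their class; further genes were named by role. Other scalings, pseudocounts, filters, weights, group subsets, a replicate block and leaving out each library were tried.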

Additional observations from a re-analysis of the deposited data

How the results depend on the processing

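The number of the 43 genes lower in tumor ran from 26 to 35 in KO (29 as reported) and from 32 to 41 in WT (40 as reported) over 11 other settings. Leaving out each library in turn gave 15 to 33 in KO and 27 to 42 in WT. The median log2 difference then ran from -1.14 to -0.86 in KO and from -1.55 to -1.15 in WT. Scaled so that every library has 1 total, the median of all genes was -0.02 in KO and -0.11 in WT, in place of 0.05 in both, and that of the 43 genes -1.05 and -1.46. Quantile normalization gave -0.12 and -0.09 for all genes and -0.98 and -1.39 for the 43.

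Between genotypes and in the interaction the count was 0 under every setting run. Without each library in turn the median of KO minus WT ran from 0.08 to 0.49 in tumor and from -0.24 to 0.03 in TDLN, and the interaction from 0.21 to 0.55. Array weights gave 0.09 in tumor and 0.18 for the interaction.

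Deviations from the group means were correlated between tissue libraries of 1 genotype. Over 6 pairs of 1 number r was -0.04 to 0.20, above 0.1 in 1. Over 12 pairs of unlike number it was -0.18 to 0.18, above 0.1 in 2. Deviations from a mean of 3 libraries are tied to each other, so these r cannot show whether a number is 1 mouse. Between tissues the replicate block was genotype with number, and it left 29 genes lower in KO and 38 in WT, with medians of -0.97 and -1.29. Between genotypes it was the number alone, and it left 0 genes, with medians of 0.15 (tumor) and -0.20 (TDLN). That second block ties KO 1 to WT 1 and KO 3 to WT 3, which differ in genotype and cannot be 1 mouse.

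Signs turned in 5 cases, all in KO tumor against TDLN: Pola2 (0.044 without KO TDLN replicate 1; range without each library -0.28 to 0.044), Orc1 (0.41 without KO tumor replicate 1 and 0.022 without KO TDLN replicate 1; range -0.36 to 0.41) and E2f1 (-0.12 with quantile normalization and -0.052 without KO tumor replicate 3; range -0.052 to 0.28). Of 1147 alternatives for single genes, 1083 kept direction and side of the threshold, 36 gained a call and 23 lost one; the cause was not tested. With TTTCGCGC alone, 7 genes had a promoter match instead of 14, as fewer letters were searched.

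With 3 libraries a group, the SE of a difference ran from 0.18 (Pcna) to 0.52 (Orc1) on the log2 scale.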
